A study of Mus musculus with 24 samples.

Results

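Integrins and the proteins that tie them to actin at focal adhesions were examined in left ventricles of hypertensive and control mice. The 40 genes were taken by symbol from the 14912 genes of the deposited table, and all 40 were present. They comprise 17 integrin alpha subunits, 8 integrin beta subunits and 15 cytoplasmic proteins (talins, kindlins, the ILK-PINCH-parvin complex, vinculin, zyxin, tensin, focal adhesion kinase with paxillin and p130Cas, and melusin). All mice were male wild-type (WT) C57BL/6J mice that carried subcutaneous osmotic mini-pumps for 7 days. The pumps delivered ANG II at 1500 ng/kg/min to the 12 mice of the hypertensive-LVH group and saline to the 12 mice of the control group. Hearts were flushed with saline before the left ventricle was taken, and mRNA was sequenced as 1 sample per mouse. Age was not given in the sources used here, and the effect of pressure cannot be told apart from that of ANG II itself in this design.

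An integrin is a pair of one alpha and one beta subunit that spans the cell membrane, binds extracellular matrix or another cell outside, and recruits talin and kindlin inside. Talin and kindlin switch the pair to its active form. The ILK-PINCH-parvin complex, vinculin, tensin and zyxin then link it to actin, and focal adhesion kinase, paxillin and p130Cas pass on signals. In cardiomyocytes these proteins sit at costameres, where the sarcomere is anchored to the matrix and load is sensed. Fibroblasts and leukocytes carry integrins of their own, the latter those with the beta2 and beta7 chains.

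Values are FPKM, the fragments of a gene scaled to the length of its transcript and to the size of the library, as the authors adjusted them. A gene rose or fell where its limma adjusted p was under 0.05 over the 14026 genes tested. The log2 fold change is the difference between groups in the mean of log2(FPKM + 1), hypertensive-LVH minus control, which understates the change of low genes. It can exceed the change of the mean FPKM where a few samples are very low, and values below 0 counted as 0. Total FPKM per sample was 460715 to 515185 with ANG II and 482319 to 567727 with saline, and the number of reads is unknown. Exact ties between samples divided both groups into 4 sets (samples 1 to 3, 4 to 6, 7 to 9 and 10 to 12), within which the values had been shifted and scaled gene by gene. The markers of cardiomyocytes, the expected main source of ventricular RNA, summed to between 35800 and 60044 FPKM in every sample. Control samples 4 to 6 stood apart, with a mean log2 level of 10 fibroblast markers of 3.19, against 5.62 to 5.73 in the other sets of control samples. Hypertensive-LVH samples 4 to 6 lay on the other side, at 6.54 against 5.86 to 5.90 in the other sets of their group. Both groups of a set had been shifted together, so these levels do not show which group was unusual. They show only that the groups differed most in this set. As a sum instead of a mean of logarithms, the 10 fibroblast markers differed less between control samples, at 668 to 1473 FPKM (median 1359). Because of this set, results are also given without samples 4 to 6 of each group.

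To show the sequence in front of members that are described below, the 250 bases before the transcription start site of 4 members are printed, 3 that rose in every setting tried (Itga5, Vcl and Fermt3) and the leukocyte subunit Itgam. They come from the RefSeq promoter windows (250 bases before to 50 after the start, GRCm38.p6), which held 27 of the 40 members. Capitals mark matches, on either strand, to TGANTCA (the AP-1 site), GAGGAA (the core of PU.1 sites), GGAATG (the TEAD site), GGGCGG (the GC box) and the CArG box bound by serum response factor.
Itga5 (chr15:103366792-103367041, - strand): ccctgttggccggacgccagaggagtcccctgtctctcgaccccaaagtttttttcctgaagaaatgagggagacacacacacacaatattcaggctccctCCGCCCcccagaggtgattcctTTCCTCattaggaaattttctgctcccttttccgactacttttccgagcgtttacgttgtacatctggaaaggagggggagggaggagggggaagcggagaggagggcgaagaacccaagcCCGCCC
Vcl (chr14:20929148-20929397, + strand): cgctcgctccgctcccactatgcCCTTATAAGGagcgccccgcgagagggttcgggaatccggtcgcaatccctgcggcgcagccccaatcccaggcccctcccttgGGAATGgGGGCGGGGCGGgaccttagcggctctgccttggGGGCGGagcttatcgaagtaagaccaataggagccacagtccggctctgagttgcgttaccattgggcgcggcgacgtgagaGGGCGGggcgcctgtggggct
Itgam (chr7:128062390-128062639, + strand): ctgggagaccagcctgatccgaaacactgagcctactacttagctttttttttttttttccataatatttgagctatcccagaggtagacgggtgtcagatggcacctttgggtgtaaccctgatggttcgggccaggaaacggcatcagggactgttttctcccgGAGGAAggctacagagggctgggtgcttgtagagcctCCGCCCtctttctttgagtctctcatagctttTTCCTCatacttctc
Fermt3 (chr19:7019470-7019719, - strand): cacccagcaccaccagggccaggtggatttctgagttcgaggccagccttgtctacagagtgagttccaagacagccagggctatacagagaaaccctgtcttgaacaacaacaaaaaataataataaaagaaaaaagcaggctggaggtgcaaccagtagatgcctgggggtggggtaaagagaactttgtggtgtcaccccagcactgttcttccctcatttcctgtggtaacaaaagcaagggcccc

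Among the 27 members with a window, 4 held an AP-1 match (Itga3, Itga9, Itgax and Zyx), a motif in 7.81% of all 32851 windows. The 27 members had 33 windows, and a member was counted where any of its windows held the motif. The shares of all windows count single windows, so the 2 measures are not alike. The Zyx window is not printed, since GENCODE vM21 starts that gene inside it. The CArG box was found in the windows of Vcl, Fermt2 and Itgb6, 3 of 27 members, and in 1.63% of all windows. In Vcl its first base lay 227 bases before the start, and the TEAD match lay 143 bases before it. The Itgam window held 2 PU.1 core matches, 84 and 15 bases before the start, and that of Itga5 held 1. This core was present in 11 of the 27 members and in 28.3% of all windows. A GC box was present in 15 of the 27 members and in 35.7% of all windows, with 2 in the printed bases of Itga5 and 4 in those of Vcl, of which 2 overlap by 1 base. None of the 5 motifs was found in the printed bases of Fermt3. Such matches describe letters in these windows and are not evidence of binding.

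Of the 40 members, 19 rose, 2 fell and 19 did not pass the test in the hypertensive-LVH group. Among all 14026 genes tested, 20.9% were higher and 12.6% lower by the same rule. The median log2 fold change of the members was 0.19, against 0.05 over all genes tested. With the second criterion of the study, an absolute log2 fold change over 0.5, 7 members were higher (Itgb3, Itgam, Fermt3, Zyx, Itgb2, Itga5 and Itga11) and 1 was lower (Itgb6). Over all genes, 4.52% were higher and 1.4% lower by both criteria. Without samples 4 to 6 of each group, 8 members rose (Itga5, Itgae, Itgb1, Itgb3, Fermt3, Vcl, Zyx and Pxn) and 1 fell (Itgb6), where 8.36% of all genes rose and 11.6% fell. The other 11 members that rose in all samples kept a log2 fold change above 0 in that fit. The groups overlapped for every member, while over all genes 0.271% had each hypertensive-LVH sample above each control sample and 0.485% had each below. With median-ratio scaling 17 members rose and 3 fell, where 2397 of all 14026 genes rose and 2235 fell. With quantile normalization 15 members rose and 4 fell, where 1922 of all genes rose and 2930 fell. The higher genes made up 62.3% of all genes called in the fit as reported, 51.7% with median-ratio scaling and 39.6% with quantile normalization.

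**Figure D1:**
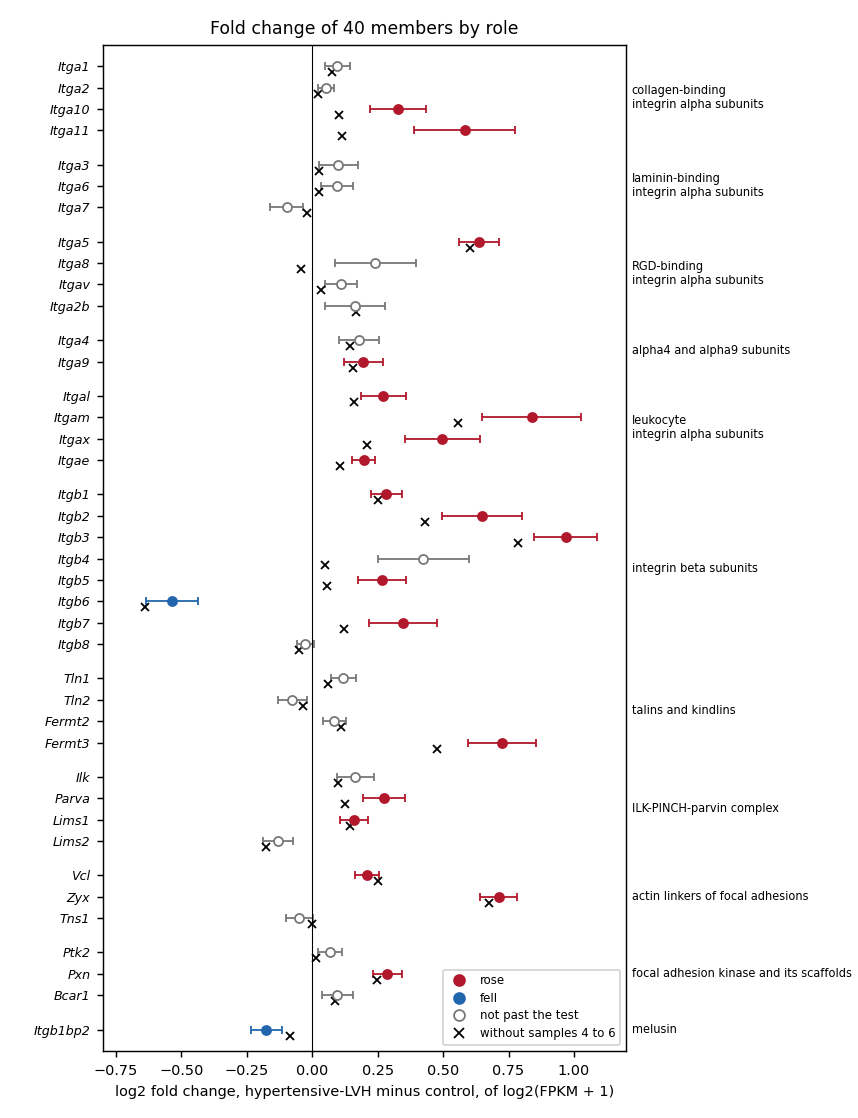
Log2 fold change of log2(FPKM + 1), hypertensive-LVH minus control, for the 40 members grouped by role, with bars of 1 standard error (12 samples per group). Filled red points rose, filled blue points fell, open points did not pass the test, and crosses are values without samples 4 to 6 of each group. Itgb3 lies farthest to the right (0.97) and Itgb6 farthest to the left (-0.54).

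The actin linkers held the member with the smallest p of all 40. Zyxin, encoded by Zyx (chr6:42349630-42360213, + strand of GRCm38, GENCODE vM21), is a LIM protein that moves to actin fibers under tension. Zyx ranged from 74.8 to 103 FPKM (median 91.5) in the hypertensive-LVH samples, while control samples spanned 43.6 to 77.2 (median 54.5). Control sample 2 was the highest control, and 11 of the 12 hypertensive-LVH samples lay above it. The log2 fold change was 0.71 ± 0.07 (SE, limma, adjusted p = 5.02e-07), and 0.68 without samples 4 to 6 (limma, adjusted p = 8.44e-05). Vinculin, encoded by Vcl (chr14:20929398-21033676, + strand), binds talin once it is stretched and couples it to actin, and shares 25.5% of its exon bases with Ap3m1 on the other strand. Vcl ranged from 35.3 to 43.1 FPKM (median 40.05) in hypertensive-LVH hearts, and 29.3 to 38.8 (median 34.1) was the range of the control hearts. The groups overlapped over a narrow range, with 9 of 12 hypertensive-LVH samples above every control sample. Its log2 fold change was 0.21 ± 0.05 (SE, limma, adjusted p = 0.00124), and 0.25 without samples 4 to 6 (limma, adjusted p = 0.00157). Tns1, which encodes tensin-1, had the highest level of all members. It ranged from 225 to 283 FPKM (median 237) with ANG II infusion, against 198 to 283 (median 255) with saline. The tensin groups covered almost the same range, with a log2 fold change of -0.05 (limma, adjusted p = 0.470).

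Of 4 RGD-binding alpha subunits, Itga5 alone rose. Itga5 (chr15:103344286-103366763, - strand) encodes the alpha chain of the fibronectin receptor. Itga5 ranged from 38.7 to 54.7 FPKM (median 44.3) in the hypertensive-LVH samples, while control samples spanned 22.1 to 39.3 (median 29.2). Again control sample 2 was the highest control, and 10 of 12 hypertensive-LVH samples lay above it. The log2 fold change was 0.64 ± 0.08 (SE, limma, adjusted p = 3.43e-06), and 0.60 without samples 4 to 6 (limma, adjusted p = 2.13e-04). Itgav, which encodes the alpha chain of vitronectin receptors, was at 7.37 ± 0.92 FPKM (SD, n = 12) against 6.73 ± 0.69 (SD, n = 12), a log2 fold change of 0.11 (limma, adjusted p = 0.159). Itga8, an alpha chain of mesenchymal cells, had a log2 fold change of 0.24 (limma, adjusted p = 0.232) and of -0.04 without samples 4 to 6. Itga2b, the platelet fibrinogen receptor chain, had one of 0.16 (limma, adjusted p = 0.275).

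Laminin-binding subunits anchor cells to the basement membrane. None of these 3 members (Itga3, Itga6 and Itga7) passed the test, and their log2 fold changes were 0.10, 0.09 and -0.10 (limma, adjusted p = 0.314, 0.247 and 0.239). Itga7 encodes the main laminin-binding alpha chain of adult striated muscle. It ranged from 47.1 to 73.4 FPKM (median 58.6) in hypertensive-LVH hearts, and 56.0 to 71.9 (median 62.1) was the range of the control hearts. As a share of the summed FPKM of the 17 alpha subunits, Itga7 held 36.9% ± 3.74 (SD, n = 12) in the control group and 29.9% ± 3.05 in the hypertensive-LVH group. Itga5 held 16.8% ± 1.95 and 22.9% ± 1.44, respectively. The log2 ratio of Itga5 to Itga7 was 0.73 higher in the hypertensive-LVH group, and it lay above the control median in 12 of 12 samples (permutation test, 100000 resamples, two-sided, p = 1.2e-04 adjusted over 6 pairs). Without samples 4 to 6 the difference was 0.62 (permutation test, adjusted p = 7.4e-04).

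Among 4 collagen-binding alpha subunits, Itga11 and Itga10 rose and Itga1 and Itga2 did not pass the test. Itga11 encodes a fibrillar collagen receptor of fibroblasts. Itga11 ranged from 1.45 to 5.68 FPKM (median 2.35) with ANG II infusion, against -0.090 to 2.25 (median 1.85) with saline, the value below 0 being left by the adjustment. The 3 lowest values were control samples 4 to 6, and hypertensive-LVH sample 5 was the highest. Samples 4 to 6 of the hypertensive-LVH group had a mean of 4.20 FPKM, against 2.25 to 2.30 in the other sets of that group. The log2 fold change was 0.58 ± 0.19 (SE, limma, adjusted p = 0.0225), and 0.11 without samples 4 to 6 (limma, adjusted p = 0.463). Itga10 behaved similarly, with 0.33 (limma, adjusted p = 0.0194) in all samples and 0.10 (limma, adjusted p = 0.414) without those, and it shares 33.5% of its exon bases with the gene model Gm42957. Fibroblast markers were low in the same 3 control samples. Of the set means of these markers, that of hypertensive-LVH samples 4 to 6 was the highest. The part of fibroblasts in the result was not tested. Since both groups of a set had been shifted together, which of the groups was unusual cannot be told from these levels. In bulk tissue, fewer cells of a type and less RNA per cell cannot be told apart. Itga1, the more abundant collagen receptor chain, was at 10.1 ± 0.74 FPKM (SD, n = 12) against 9.39 ± 0.78 (SD, n = 12; limma, adjusted p = 0.120), and Itga2, at 0.218 FPKM over all samples the least abundant member, had a log2 fold change of 0.05 (limma, adjusted p = 0.182). The log2 ratio of Itga11 to Itga1 was 0.49 higher in the hypertensive-LVH group (permutation test, adjusted p = 0.0202), and 0.04 higher without samples 4 to 6 (permutation test, adjusted p = 0.709). Of alpha4 and alpha9, chains with shared ligands, Itga9 rose by 0.20 on the log2 scale (limma, adjusted p = 0.0406), a call that 15 of 37 other settings kept, and Itga4 had 0.18 (limma, adjusted p = 0.0779).

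All 4 leukocyte alpha subunits rose, where 20.9% of all genes did. Itgam (chr7:128062640-128118491, + strand) encodes CD11b, the alpha chain of complement receptor 3 on macrophages, monocytes and neutrophils. In the annotation, 68.7% of its exon bases are shared with the gene model Gm49368 on the same strand, and how such fragments were assigned is not given in the sources used here. Itgam ranged from 1.97 to 7.55 FPKM (median 3.63) in the hypertensive-LVH samples, while control samples spanned 0.661 to 4.32 (median 1.62). Control sample 1 was the highest control, and 12 of 12 hypertensive-LVH samples lay above the control median. The log2 fold change was 0.84 ± 0.19 (SE, limma, adjusted p = 0.00169), and 0.56 without samples 4 to 6 (limma, adjusted p = 0.0503). Itgax, which encodes CD11c of dendritic cells and macrophages, rose by 0.50 (limma, adjusted p = 0.01001). Itgal, the LFA-1 chain, rose by 0.27 (limma, adjusted p = 0.0173). Neither passed the test without samples 4 to 6 (limma, adjusted p = 0.160 and 0.1501). Itgae, which encodes CD103, rose by 0.20 (limma, adjusted p = 0.00153) from a level of only 0.132 ± 0.086 FPKM (SD, n = 12) in the control group, and had 0.11 without samples 4 to 6 (limma, adjusted p = 0.0324).

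The partner of 3 of these chains, Itgb2 (CD18), ranged from 3.64 to 15.5 FPKM (median 7.57) in hypertensive-LVH hearts, and 3.13 to 6.56 (median 5.09) was the range of the control hearts. Hypertensive-LVH sample 6 was the highest and sample 9 the lowest of its group, and 10 of 12 samples lay above every control sample. On the log2 scale the change was 0.65 ± 0.15 (SE, limma, adjusted p = 0.00239), and 0.43 without samples 4 to 6 (limma, adjusted p = 0.0531). Itgb7, the beta chain of gut-homing lymphocytes, rose by 0.35 (limma, adjusted p = 0.0396), a call that 19 of 37 other settings kept. Fermt3 encodes kindlin-3, the kindlin of blood cells. Fermt3 ranged from 3.20 to 9.10 FPKM (median 5.72) with ANG II infusion, against 1.58 to 4.11 (median 3.12) with saline. Samples 6 and 9 of the hypertensive-LVH group were again the highest and the lowest. On the log2 scale the change was 0.73 ± 0.13 (SE, limma, adjusted p = 0.000184), and the call was kept without samples 4 to 6 (0.48; limma, adjusted p = 0.00567).

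Macrophage markers moved with these members. All 10 markers rose, their summed level was 376 to 1084 FPKM with ANG II and 277 to 622 with saline, and none was at 0. Without samples 4 to 6, 1 of the 10 rose, where 8.36% of all genes did. The median log2 fold change of the 10 markers was then 0.36, against 0.0051 over all genes. In all samples these medians were 0.59 and 0.05. After the mean of each group and set was removed, Itgax followed the mean log2 level of the macrophage markers across the 24 samples with a Pearson's r of 0.92 (permutation within groups and sets, p = 3.5e-04, adjusted p = 0.0327 over 560 relations) and a Spearman's rho of 0.84 (p = 8.9e-04, adjusted p = 0.0453, the same permutation). Leaving out the 2 samples farthest from the median gave r = 0.88. For Itgb2, Fermt3, Itgal, Itgb7 and Itgam, r was 0.90, 0.91, 0.83, 0.83 and 0.75, none past the adjusted permutation threshold for r (adjusted p of 0.0546 to 0.221). In that order rho was 0.81, 0.82, 0.86, 0.78 and 0.57. By rho Itgb2 and Itgal passed (permutation, adjusted p = 0.0453 for each), and the others did not (permutation, adjusted p of 0.0547 to 0.263). Of the 560 relations of 40 members with 14 marker lists, 12 passed for r and 8 for both r and rho. The pairwise r among Itgal, Itgam, Itgax, Itgb2, Itgb7 and Fermt3 had a median of 0.80, against 0.23 over all 780 pairs of members, as a description of members picked after these values were seen. Of the other blood cell lists, 1 of 8 neutrophil markers, 3 of 8 T and NK cell markers and 1 of 8 B cell markers rose, where 20.9% of all genes did, and none of these rose without samples 4 to 6 (limma). Red blood cell markers (6 of 9 rose) summed to 781 to 6452 FPKM with ANG II and 92.5 to 2951 with saline, although hearts had been flushed. The part of macrophages and of blood left in the tissue in these changes was not tested.

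**Figure D2:**
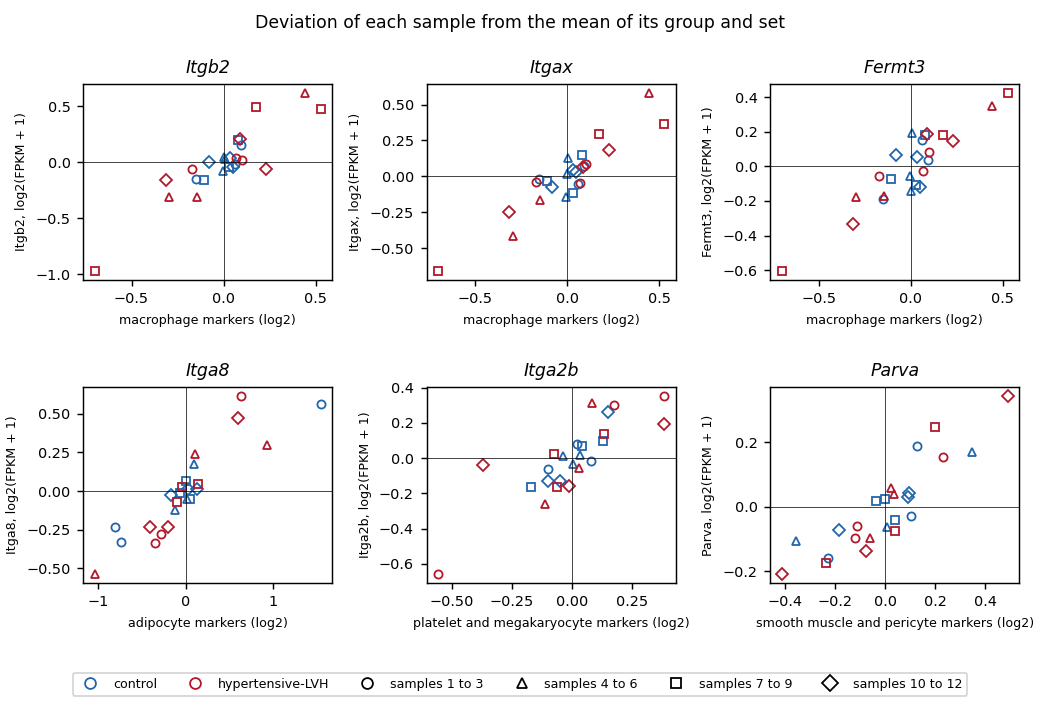
Deviation of each of 24 samples from the mean of its group and set, with log2(FPKM + 1) of 6 members on the y axes and the mean log2 level of a marker list on the x axes. Blue is control, red is hypertensive-LVH, and symbols mark the sets. Pearson's r was 0.90 for Itgb2, 0.92 for Itgax and 0.91 for Fermt3 with macrophage markers, 0.90 for Itga8 with adipocyte markers, 0.83 for Itga2b with platelet markers and 0.89 for Parva with smooth muscle and pericyte markers.

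Other members went with other lists. Parva, Itgb4 and Ptk2 followed smooth muscle and pericyte markers (r = 0.89, 0.83 and 0.82, permutation within groups and sets, p = 4e-05, 2e-05 and 5.3e-04, adjusted p = 0.00933, 0.00933 and 0.0378). Their rho was 0.88, 0.85 and 0.81 (permutation, adjusted p = 0.0140, 0.0056 and 0.0448), and leaving out the 2 farthest samples gave r of 0.83, 0.75 and 0.78. Itgb4 also followed fibroblast markers (r = 0.76, permutation within groups and sets, p = 5e-05, adjusted p = 0.00933), with a rho of 0.79 (permutation, adjusted p = 0.0448) and r = 0.74 without the 2 farthest samples. Itga8 and Itga10 followed adipocyte markers (r = 0.90 and 0.85, permutation, p = 1.1e-04 and 8.1e-04, adjusted p = 0.0154 and 0.0412). Their rho was 0.92 and 0.83 (permutation, adjusted p = 0.0448 and 0.0453), and r was 0.87 and 0.75 after the 2 farthest samples were left out. Pxn went against the cardiomyocyte markers, with r = -0.67 and rho = -0.74 (permutation, adjusted p = 0.0327 and 0.0453) and r = -0.68 without the 2 farthest samples. For smooth muscle and pericytes 3 of 10 markers rose and 2 fell, and for adipocytes 1 of 8 rose and 1 fell. Among all genes 20.9% rose and 12.6% fell. Without samples 4 to 6, 0 rose and 2 fell for smooth muscle and pericytes, and 0 rose and 0 fell for adipocytes. In that fit 8.36% of all genes rose and 11.6% fell. The median log2 fold change went from 0.17 to -0.03 for smooth muscle and pericyte markers and from 0.18 to -0.18 for adipocyte markers. For Itga2b with platelet and megakaryocyte markers r was 0.83, just short of the threshold (permutation, adjusted p = 0.0517), and rho was 0.86 (permutation, adjusted p = 0.0448).

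Of 8 beta subunits, 5 rose and 1 fell, where 20.9% of all genes rose and 12.6% fell. Itgb3 encodes the beta3 chain of the vitronectin receptor and the platelet fibrinogen receptor and had the largest log2 fold change of the members. Itgb3 ranged from 1.30 to 4.12 FPKM (median 2.60) in the hypertensive-LVH samples, while control samples spanned 0.118 to 1.67 (median 0.873). A single hypertensive-LVH sample, sample 9, lay within the control range. On the log2 scale the change was 0.97 ± 0.12 (SE, limma, adjusted p = 3.94e-06), and 0.79 without samples 4 to 6 (limma, adjusted p = 1.85e-04). The partner chains Itgav and Itga2b did not pass the test, as given above. Of 9 platelet markers tested 2 rose, a share close to the 20.9% of all genes that rose. The summed platelet markers lay between 12.9 and 53.1 FPKM in the hypertensive-LVH group and between 20.9 and 35.2 in the control group. Their part in the Itgb3 result was not tested.

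Itgb1, which encodes the beta1 chain shared by most matrix-binding integrins, was the most abundant subunit. Itgb1 ranged from 137 to 209.6 FPKM (median 164) in hypertensive-LVH hearts, and 117 to 153 (median 138) was the range of the control hearts. On the log2 scale the change was 0.28 ± 0.06 (SE, limma, adjusted p = 8.03e-04) and 0.25 without samples 4 to 6 (limma, adjusted p = 0.0141), with 8 of 12 hypertensive-LVH samples above every control sample. Summed over the 8 beta subunits, FPKM was 256 ± 32.0 (SD, n = 12) with ANG II and 208 ± 14.4 with saline, and Itgb1 held 65.8% ± 3.34 and 66.1% ± 3.99 of that sum. Itgb5, a vitronectin receptor chain, ranged from 54.2 to 97.04 FPKM (median 67.6) with ANG II infusion, against 38.3 to 67.8 (median 62.3) with saline. Control samples 4 to 6 were its 3 lowest values, and the log2 fold change was 0.27 (limma, adjusted p = 0.0278), or 0.05 without samples 4 to 6 (limma, adjusted p = 0.551). Itgb4, the laminin receptor chain of hemidesmosomes, had 0.42 (limma, adjusted p = 0.0620) and 0.05 in those 2 fits, and Itgb8 had -0.03 (limma, adjusted p = 0.550).

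Itgb6 was the clearest decrease. Itgb6 (chr2:60598292-60722643, - strand) encodes the beta6 chain, which pairs with alphav and is known mainly from epithelia as an activator of latent TGF-beta. Itgb6 ranged from 1.64 to 3.60 FPKM (median 2.31) in the hypertensive-LVH samples, while control samples spanned 3.00 to 5.34 (median 3.73). Of the hypertensive-LVH samples, 10 of 12 lay below every control sample, samples 5 and 11 being the exceptions. It changed on the log2 scale by -0.54 ± 0.10 (SE, limma, adjusted p = 2.97e-04), and -0.64 without samples 4 to 6 (limma, adjusted p = 7.76e-04). The epicardial and mesothelial markers, the epithelium-like list used here, had 0 of 9 that rose and 0 that fell, where 20.9% of all genes rose and 12.6% fell. Without samples 4 to 6, 1 of these markers rose and 0 fell, where 8.36% of all genes rose and 11.6% fell. Their median log2 fold change was -0.02 in all samples and -0.15 in that fit. The part of such cells in the Itgb6 result was not tested.

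**Figure D3:**
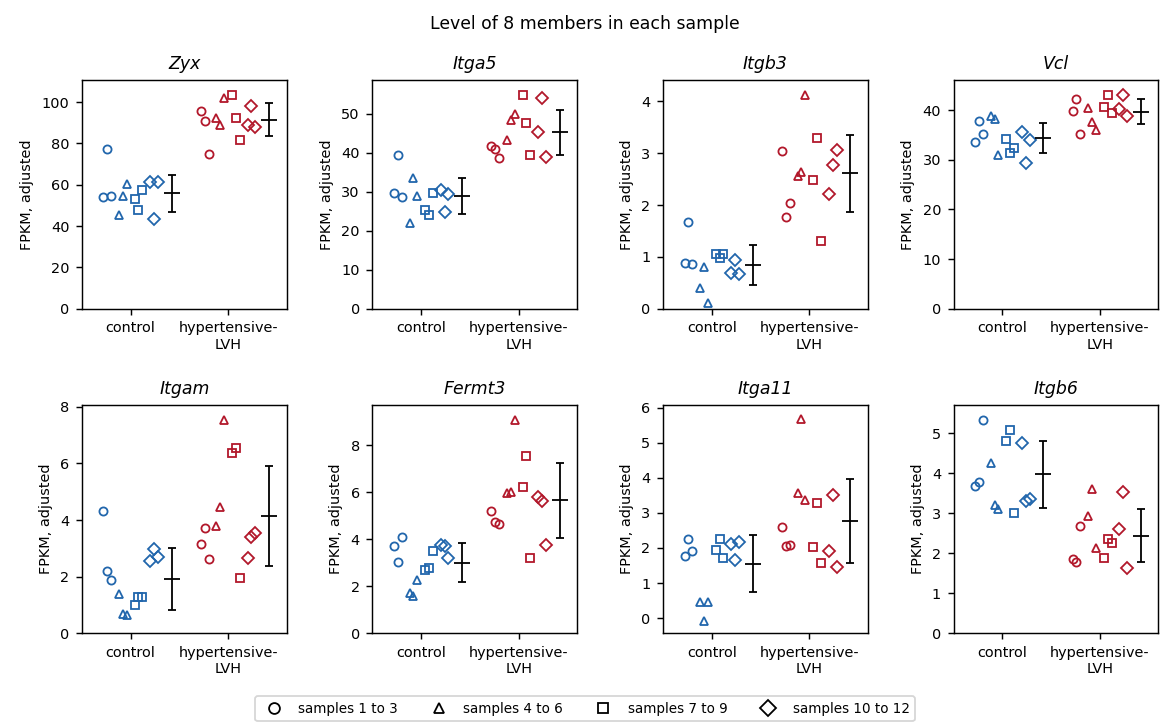
Adjusted FPKM of 8 members in each sample (y axes), control in blue and hypertensive-LVH in red, with symbols for the 4 sets and black bars for the mean ± SD of 12 samples. The hypertensive-LVH samples lie above most control samples for Zyx, Itga5 and Itgb3 and below most for Itgb6, while the Itga11 groups separate mainly through the triangles of samples 4 to 6.

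The talins and the widely expressed kindlin did not pass the test. Talin binds the beta tail and activates the pair. Tln1 ranged from 50.7 to 72.8 FPKM (median 63.5) in hypertensive-LVH hearts, and 54.0 to 64.8 (median 58.5) was the range of the control hearts, a log2 fold change of 0.12 (limma, adjusted p = 0.0578). Tln2, the talin enriched in striated muscle, had a log2 fold change of -0.08 (limma, adjusted p = 0.282). The log2 ratio of Tln1 to Tln2 was 0.19 higher in the hypertensive-LVH group (permutation test, adjusted p = 0.00271), and 0.10 higher without samples 4 to 6 (permutation test, adjusted p = 0.0865). Fermt2, kindlin-2, ranged from 90.3 to 127 FPKM (median 104) and from 86.3 to 105 (median 99.3), in the hypertensive-LVH and control group, a log2 fold change of 0.08 (limma, adjusted p = 0.140). The ratio of Fermt3 to Fermt2 differed by 0.64 (permutation test, adjusted p = 0.00188), and by 0.37 without samples 4 to 6 (permutation test, adjusted p = 0.0555).

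In the ILK-PINCH-parvin complex, Lims1 and Parva rose, and Ilk and Lims2 did not pass the test. Ilk, the pseudokinase at its core, ranged from 44.5 to 70.8 FPKM (median 59.9) with ANG II infusion, against 45.1 to 66.4 (median 52.5) with saline (log2 fold change 0.16, limma, adjusted p = 0.0683). Exons of Ilk share 76.7% of their bases with Taf10 on the other strand in the annotation, and whether fragments were counted by strand is not given in the sources used here. Lims1 and Lims2 encode PINCH1 and PINCH2, alternative partners of ILK. Lims1 rose by 0.16 (limma, adjusted p = 0.0236), or had 0.14 without samples 4 to 6 (limma, adjusted p = 0.134). Lims2 ranged from 60.8 to 80.4 FPKM (median 70.9) in the hypertensive-LVH samples, while control samples spanned 60.8 to 87.2 (median 79.8), with a log2 fold change of -0.13 (limma, adjusted p = 0.0832). The log2 ratio of Lims1 to Lims2 was 0.29 higher in the hypertensive-LVH group and above the control median in 12 of 12 samples (permutation test, adjusted p = 0.00271). This difference was 0.32 without samples 4 to 6 (permutation test, adjusted p = 0.00963). Parva, which encodes alpha-parvin, rose by 0.27 (limma, adjusted p = 0.0097), or had 0.12 without those samples (limma, adjusted p = 0.246).

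Of focal adhesion kinase and its scaffolds, Pxn rose. Pxn encodes paxillin, an adaptor for the kinase and vinculin. It was at 34.0 ± 2.70 FPKM (SD, n = 12) with ANG II and 27.7 ± 2.94 with saline, and its log2 fold change was 0.29 ± 0.06 (SE, limma, adjusted p = 3.78e-04), or 0.25 without samples 4 to 6 (limma, adjusted p = 0.00266). Ptk2, the kinase itself, had 0.07 (limma, adjusted p = 0.254), and Bcar1, which encodes p130Cas, had 0.10 (limma, adjusted p = 0.222). Itgb1bp2 encodes melusin, a muscle chaperone that binds the beta1 tail and is known from studies of pressure overload. Itgb1bp2 ranged from 131 to 194 FPKM (median 151) in hypertensive-LVH hearts, and 146 to 204 (median 173) was the range of the control hearts. Of the hypertensive-LVH samples, 6 of 12 lay below every control sample. It changed on the log2 scale by -0.18 ± 0.06 (SE, limma, adjusted p = 0.0285), and -0.09 without samples 4 to 6 (limma, adjusted p = 0.390). The ratio of Itgb1 to Itgb1bp2 was 0.46 higher on the log2 scale (permutation test, adjusted p = 0.00188) and 0.34 higher without samples 4 to 6 (permutation test, adjusted p = 0.0319). Of 10 cardiomyocyte markers, 5 fell and 0 rose, where 12.6% of all genes fell and 20.9% rose. The summed cardiomyocyte markers were at 35800 to 51463 FPKM with ANG II and 46686 to 60044 with saline. Their part in the melusin result was not tested.

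**Figure D4:**
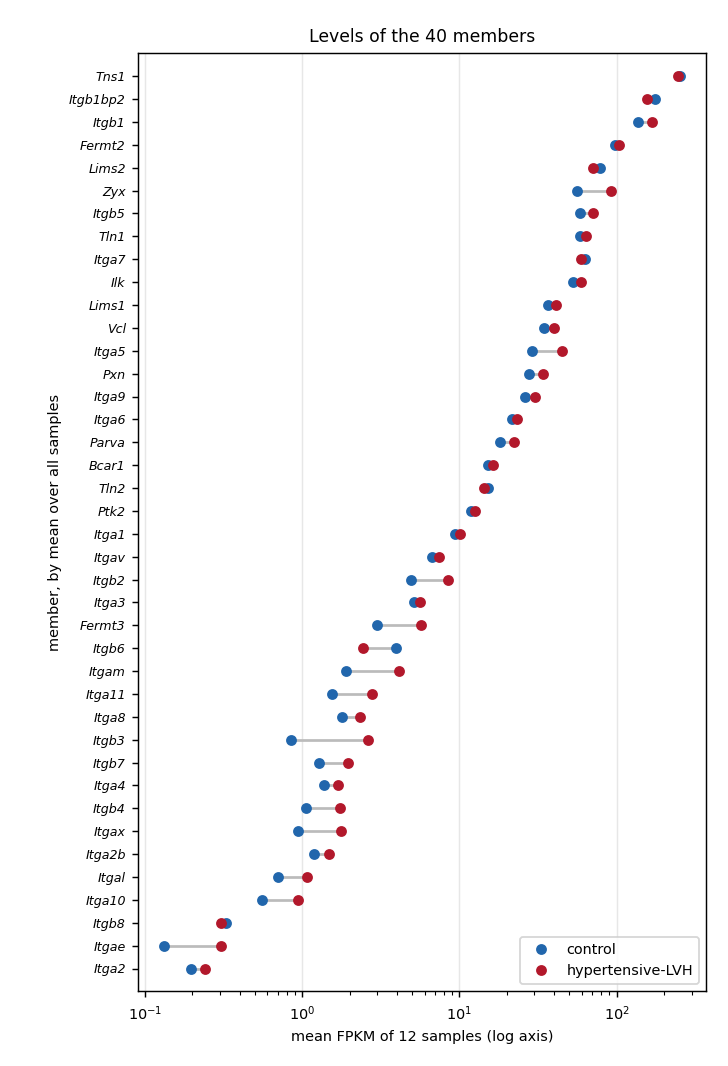
Mean FPKM of the 40 members in the control (blue) and hypertensive-LVH (red) groups on a log axis, 12 samples per group, ordered by the mean over all samples. Levels run from 0.218 FPKM at the bottom to 249.8 for Tns1 at the top, and Itgb3, Itgam and Itgae show the longest steps between the groups.

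Because the adjustment had used the groups, the differences within each set before it were recovered from the 0.01 FPKM steps of the values, a step chosen after the data were seen. This was possible for 38 members, not for Itga5 and Tln2. Of the 152 differences, 140 had the sign of the deposited values and 12 the other. In the recovered values 23 members were higher in the hypertensive-LVH samples of all 4 sets, and Itgb6 was lower in all 4. The recovery assumed a scale and a shift for each gene and set, and a group difference common to all 4 sets. It was run for the members only, so these counts have no share of all genes beside them. Zyx was higher by 21.8, 40.4, 37.4 and 35.6 FPKM in the 4 sets. Itgb3 was higher by 0.887, 2.87, 1.38 and 1.92 FPKM, and Vcl by 3.42, 1.45, 7.08 and 7.75. For Itgb6 the differences were -2.15, -0.550, -2.13 and -1.28 FPKM, samples 4 to 6 showing the smallest of these. Itgb2 was higher by 1.10, 7.18, 4.80 and 1.64 FPKM, and Itgam by 0.0433, 5.01, 4.00 and 0.837. Itga11 was higher by 4.52 FPKM in samples 4 to 6 and by 0.0533, 0.803 and 0.367 in the others. For Itgb1bp2 the difference was negative in 3 sets and positive in samples 10 to 12. These values carry no test.

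**Figure D5:**
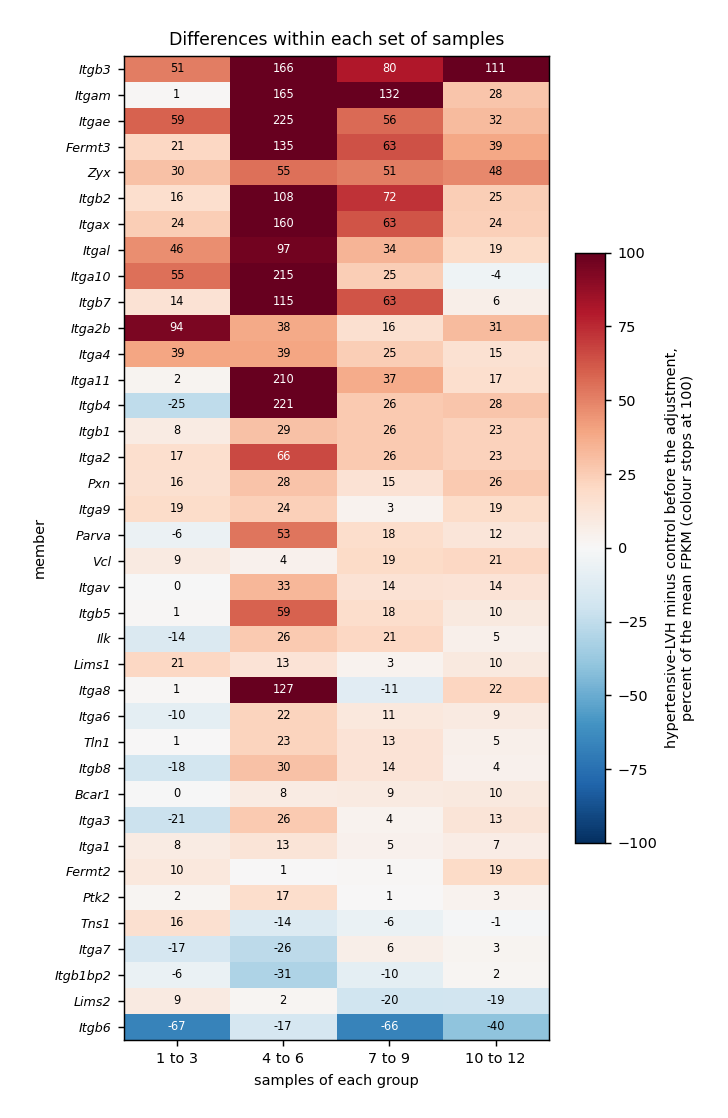
Difference between the hypertensive-LVH and control samples of each set before the adjustment, as a percent of the mean FPKM of the member, for the 38 members where it was recovered, ordered by the median of the 4 sets. Columns are the sets, red is higher and blue is lower in hypertensive-LVH, and colour stops at 100%. Zyx is at 30 to 55% in all 4 columns and Itgb6 is negative in all 4, while the Itga11, Itgb4 and Itga8 rows are deep red in samples 4 to 6 and not in the others.

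Of 81 other focal adhesion proteins tested, 46 rose and 3 fell, with a median log2 fold change of 0.21, where 20.9% of all genes rose and 12.6% fell with a median of 0.05. Without samples 4 to 6, 28 rose and 3 fell, with a median of 0.16, where 8.36% of all genes rose and 11.6% fell with a median of 0.0051. The largest increases were Csrp2 (1.40; limma, adjusted p = 0.00178), a LIM protein of smooth muscle and activated mesenchymal cells, Itgbl1 (1.31; limma, adjusted p = 0.0040) and Actn1 (0.82; limma, adjusted p = 3.88e-04), the non-muscle alpha-actinin of focal adhesions. The 3 that fell were Fblim1 (-0.32; limma, adjusted p = 4.74e-04), a filamin-binding adaptor, Ldb3 (-0.20; limma, adjusted p = 0.0391), a Z-disc protein, and Sharpin (-0.12; limma, adjusted p = 0.0379), an integrin inhibitor. Without samples 4 to 6, Fblim1 and Sharpin fell, Ldb3 did not pass the test, and Kank2 was the third that fell, named after its values were seen. Of 44 integrin ligands and counter-receptors tested, 24 rose and 2 fell, with a median of 0.41, and 8 rose and 3 fell without samples 4 to 6, with a median of 0.18, against the same shares of all genes. The largest increases were the fibrillar collagens Col1a1 (2.77; limma, adjusted p = 0.0180), Col3a1 (2.63; limma, adjusted p = 0.0418) and Col1a2 (2.48; limma, adjusted p = 0.0296), of which Col1a1 alone rose without samples 4 to 6. Mean FPKM of these 3 was 292, 423 and 228 with ANG II and 86.7, 175 and 90.7 with saline. Those means differ by less than the log2 fold changes. Fn1, the ligand of the Itga5 product, was at 79.2 ± 33.5 FPKM (SD, n = 12) against 30.9 ± 24.2 (log2 fold change 2.08; limma, adjusted p = 0.0233), and did not pass the test without samples 4 to 6. Here too the means differ by less than the log2 fold change. Vtn, which encodes vitronectin, fell from 22.3 ± 3.56 FPKM (SD, n = 12) to 13.1 ± 3.33 (log2 fold change -0.76; limma, adjusted p = 4.64e-05). Of 10 fibroblast markers, 5 rose and 1 fell, with sums of 1085 to 2668 FPKM with ANG II and 668 to 1473 with saline. In the fit without samples 4 to 6, 2 rose and 1 fell, and the median log2 fold change of these markers went from 0.74 to 0.17.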

How the data were processed

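RNA selected with oligo(dT) from left ventricles of 12 hypertensive-LVH and 12 control mice was sequenced by the authors, and 1 table of FPKM by gene symbol was deposited. The tools named in the submitters' processing notes are HISAT, Bowtie2 and RSEM. The genome build is not given in the sources used here. The deposited scores are FPKM that had been adjusted, since 2741 values (0.766%) are negative and exact ties mark 4 sets of samples. The methods do not name this step, and it used the groups, which the p-values do not take into account. Of 16 samples per group in the paper's methods, 12 per group were analysed here, and the reads behind each value are unknown.

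Negative values were set to 0 for tests, and means, ranges and SD are of the values as deposited. Genes whose mean FPKM reached 0.1 (14026, all 40 members among them) were tested on log2(FPKM + 1) with limma 3.58.1 (R 4.3.3, intensity trend, two-sided) and p-values adjusted by Benjamini-Hochberg over those genes. On simulated data the fit was checked before use. For 6 pairs of members the difference in log2 ratio was tested by permutation (100000 resamples, two-sided). Relations across samples were tested by permutation within groups and sets. Python 3.11.15, numpy 2.4.6, pandas 2.3.3 and scipy 1.17.1 were used. Samples were grouped by their labels. Per-sample ranges are given for members that met both criteria, that fell, or that were among the 10 highest in level, and for Vcl, which was chosen after its values were seen, and of the other lists the 3 largest rises and falls are named, with Fn1 added after its values were seen. A gene that this rule would name is not reported here. The members, gene lists and the set of samples left out were chosen with earlier results of these data known. Positions and exon overlaps are from GENCODE vM21 (GRCm38). The alternatives tried were the pseudocount, the filter, the scaling, the test, the set of samples or replicate number as a term, and leaving out each set or each mouse.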

Additional observations from a re-analysis of the deposited data

How the results depend on the processing

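The direction of each of 7 members higher by both criteria, and of Itgb6, held in each alternative tried. Itga5, Itgb1, Itgb3, Itgb6, Fermt3, Vcl, Zyx and Pxn passed the test in all 37 alternatives, while Itga9 passed in 15 and Itgb7 in 19. Without samples 4 to 6 of each group, 9 of the 40 members passed (8 rose), against 21 in all samples, 4 by both criteria, 31 of the other focal adhesion proteins and 11 of the ligands. In that fit the ratio differences were 0.10 for Tln1 to Tln2, 0.37 for Fermt3 to Fermt2 and 0.038 for Itga11 to Itga1, with no longer an adjusted permutation p under 0.05 (0.0865, 0.0555 and 0.709), and Itga8 (-0.041) and Tns1 (4.7e-04) changed sign. With 0.1 in place of 1 before the logarithm, 13 members met both criteria, while the median log2 fold change over all genes went from 0.05 to 0.08. The share of all genes that met both criteria is not given for any of the alternatives. Itga2 changed sign under quantile normalization (-0.0078) and Itga2b without samples 1 to 3 (-0.024). Leaving out each mouse gave 18 to 24 members that passed and 7 to 10 by both criteria. Over all 14026 genes those fits had 2375 to 3335 that rose and 1596 to 1824 that fell. The cause of these changes was not tested.

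With the replicate number as a block, 12 members passed (11 rose, 1 fell), where 1586 of all 14026 genes rose and 1238 fell. The ratio of Itga11 to Itga1 lost its call (0.49, permutation p = 0.0913). Same-numbered samples correlated between -0.557 and -0.00109 in their deviations (median -0.219), 0 of 12 pairs above 0.1. None of the samples correlated best with its own number. Other pairs of the same set were negative too (median -0.151), against a median of 0.060 across sets. Shifting both groups of a set together pushes their deviations apart, so this check cannot decide whether the numbers pair the samples.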

Other observations

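Among pairs of members, after the mean of each group and set was removed, the highest Pearson's r was 0.95 (Itgax with Itgb7) and the lowest was -0.83 (Fermt2 with Ilk), over 24 samples that share the sets and the scaling. These are the extremes of 780 pairs and are given without a test.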
